A study of Mus musculus with 8 samples.

Results

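Cx3cr1 encodes the receptor for fractalkine, and its level was followed across 8 mouse RNA sequencing libraries from 3 kinds of mononuclear phagocyte. It is 1 of 23413 gene symbols in the deposited table and 1 of the 11415 genes tested, and its row was found by its symbol. The gene was chosen with earlier results of these data known, so its tests are no independent support. The libraries came from repopulating microglia (n = 3, strain label DTRmg), bone-marrow macrophages (n = 3, strain label DTRmg) and wild-type microglia (n = 2, strain label DTR). Microglia are macrophages that live in the brain, and repopulating microglia are those that refill it after depletion. Protocols shared by all 8 labels describe 2 mg tamoxifen on postnatal days 12 and 14 and 3 injections of 500 ng diphtheria toxin for depletion, followed by sorting of brain cells, and do not say which groups received either agent. The labels give no age at collection, name no Cre allele, and leave it unsaid which organ the bone-marrow macrophages came from and whether replicates were separate animals. The p-values therefore measure only the spread between these libraries, which may be technical. The table names the columns of the bone-marrow group differently from its samples, and they were assigned by exclusion.

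Fractalkine, the product of Cx3cl1, is made by neurons as a membrane-bound chemokine that metalloproteases can release. Its receptor is coupled to inhibitory G proteins, and in the brain it is carried mainly by microglia, where it takes part in their contact with neurons and their patrolling. In blood it is high on patrolling monocytes and lower on classical ones. As background on mouse models of this kind, a tamoxifen-inducible Cre recombinase knocked into the Cx3cr1 locus switches on a diphtheria toxin receptor in microglia, and the copy that carries the Cre no longer encodes the receptor. The labels used here do not state whether the DTRmg mice carry that allele or on how many copies. The strain label and the cell group cannot be told apart in either comparison with wild type.

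On the mouse assembly GRCm38 (mm10, gene models of GENCODE vM21), Cx3cr1 lies on the minus strand of chromosome 9 from 119901616 to 120069879. Its transcript Cx3cr1-201 runs from 120048683 to 120068296 in 2 exons, and its 1062 coding bases lie in 1 of them. The library kit does not mark strand, and an antisense gene, Gm33858, overlaps 78 bases of the Cx3cr1 exons, so reads from that stretch cannot be assigned to either gene. Counts are per gene, so no level of a single transcript was measured, and Cx3cr1-202 and Cx3cr1-203 start at 120068283 and 120069879. The region at the start of Cx3cr1-201 is shown to place the gene's start. It covers 250 bases before and 50 after the start, chr9:120068247-120068546 (RefSeq, GRCm38.p6), and is written 5′ to 3′ on the minus strand, with capitals marking the match to the RUNX motif TGTGGT on the opposite strand.
Cx3cr1 start region: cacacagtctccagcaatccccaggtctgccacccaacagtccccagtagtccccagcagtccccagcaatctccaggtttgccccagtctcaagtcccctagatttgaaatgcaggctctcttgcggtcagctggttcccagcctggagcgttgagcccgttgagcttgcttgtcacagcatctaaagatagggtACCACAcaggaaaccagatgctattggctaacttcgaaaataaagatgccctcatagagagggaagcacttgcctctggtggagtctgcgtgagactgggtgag
Both strands were searched for 8 motifs. The RUNX letters occurred 1 time here and are held by 16.8% of 32851 promoters of the same length, and the ETS core GGAA occurred 3 times and is held by 96.0%. No match was found to the PU.1 site GAGGAAGT (3.20% of promoters), the core of the interferon response element (3.44%), the AP-1 site TGANTCA (7.81%), the C/EBP letters TTGCNNAA (10.8%), the TATA box TATAAA (13.6%) or the MAF letters TGCTGA (19.5%). The ETS core overlaps the PU.1 letters, and a match is a description of the letters only.

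Cx3cr1 stood far higher in wild-type microglia than in either group with the strain label DTRmg. It had 22578, 19166 and 23758 normalised counts in repopulating microglia 1 to 3, 19847, 21977 and 18454 in bone-marrow macrophages 1 to 3, and 63892 and 68599 in wild-type microglia 1 and 2. Normalised counts are reads per gene after the authors' scaling of each library by its own size factor. All 6 DTRmg libraries lay below both wild-type libraries, while the repopulating and bone-marrow libraries overlapped. Repopulating microglia averaged 21834 ± 2385, bone-marrow macrophages 20093 ± 1775 and wild-type microglia 66246 ± 3329 (SD, n = 3, 3 and 2). The order of the levels was therefore wild type first, and the other groups, which did not differ beyond their spread, after it. Replicates varied by 10.9% of the mean in repopulating microglia, 8.83% in bone-marrow macrophages and 5.02% in wild-type microglia.

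The transcript was abundant everywhere, so counting error was small. The values rest on 12986 to 23905 Cx3cr1 reads per repopulating library, 20722 to 34925 per bone-marrow library and 59796 and 67469 in the wild-type libraries, out of 5918944 to 12476427 reads counted in genes. As a share of those reads Cx3cr1 made up 0.251% (95% Wilson interval 0.248 to 0.254), 0.219% (0.216 to 0.223) and 0.297% (0.293 to 0.301) in repopulating microglia 1 to 3. The bone-marrow macrophages held 0.280% (0.277 to 0.283), 0.302% (0.298 to 0.306) and 0.256% (0.252 to 0.259). The wild-type microglia held 0.783% (0.777 to 0.789) and 0.888% (0.881 to 0.894). The intervals cover counting error only, and within each group some do not overlap, so replicates differed by more than counting. By count Cx3cr1 ranked 32nd to 43rd among all genes of the repopulating libraries, 27th to 32nd in the bone-marrow libraries, and 10th and 8th in the wild-type libraries. In a bulk library fewer cells of a type and less RNA per cell cannot be told apart.

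**Figure D1:**
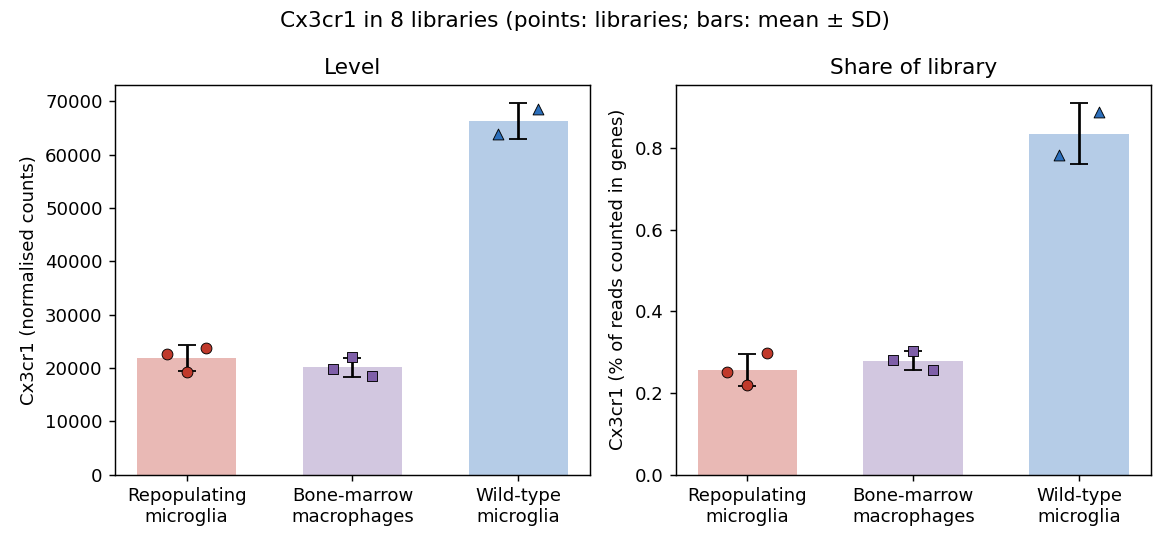
Cx3cr1 in each library, as normalised counts (left) and as percent of the reads counted in genes (right). Points are libraries and bars are means with SD (n = 3, 3 and 2). The repopulating and bone-marrow libraries sit between 18454 and 23758 normalised counts and the wild-type libraries at 63892 and 68599.

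Set against wild type, Cx3cr1 was lower in repopulating microglia by a factor of 3.04. The log2 fold was -1.61 ± 0.17 (SE, 95% interval -1.99 to -1.22), which leaves 32.8% of the wild-type level (25.2 to 42.8%), with a limma adjusted p of 0.00179. All adjusted p-values here are Benjamini-Hochberg values over all genes tested. Single repopulating libraries stood at 27.9 to 37.2% of single wild-type libraries. In this comparison 8.61% of all tested genes passed the threshold of 0.05, 4.86% higher and 3.75% lower in repopulating microglia, and the median log2 fold of all genes was -0.02. Among the 99 genes averaging at least 10000 normalised counts, only the ribosomal precursor Rn45s, at -1.71, had a lower fold than Cx3cr1. Repopulating replicate 3 bears on the number of calls, which was 983 with it and 2958 without it. The Cx3cr1 fold without it was -1.67. The exact two-sided permutation p on the 5 libraries alone was 0.2, the smallest that 3 against 2 allows.

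Bone-marrow macrophages also had a level far below wild type, at a log2 fold of -1.72 ± 0.17 (SE, 95% interval -2.11 to -1.34, limma adjusted p = 0.00011). This leaves 30.3% of the wild-type level (23.2 to 39.5%), and single libraries stood at 26.9 to 34.4% of it. Here 43.5% of tested genes passed, 21.3% higher and 22.2% lower in bone-marrow macrophages, so passing this test was common. The exact permutation p was again 0.2, the smallest possible. With both DTRmg groups weighted equally against DTR, the log2 fold was -1.67 ± 0.15 (SE, limma adjusted p = 0.000259), in a contrast where 31.2% of genes passed. All 6 DTRmg libraries were lower than both DTR libraries, and the exact permutation p of 0.0714 is the smallest that 6 against 2 allows. The comparisons with wild type share the same 2 control libraries.

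Both falls were larger than 2-fold, which is a log2 fold of -1. The whole 95% interval lay below -1 for repopulating microglia (the fold differed from -1 by -0.61) and for bone-marrow macrophages (by -0.72). For bone-marrow macrophages this no longer held after quantile normalisation, where the fold was -1.22 and differed from -1 by -0.22 ± 0.16 (SE). It held for both groups without any single library.

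Between the groups that share the strain label, Cx3cr1 did not differ beyond its spread. Repopulating microglia stood at 108% of bone-marrow macrophages (95% interval 85.6 to 138%), a log2 fold of 0.12 ± 0.15 (SE, -0.22 to 0.46) with a limma adjusted p of 0.597 and an exact permutation p of 0.4 for 3 against 3. Single repopulating libraries ran from 87.2 to 129% of single bone-marrow libraries. In this comparison 30.9% of genes passed. The sign of the fold is not settled, since it turned to -0.13 with libraries scaled to equal totals, -0.36 after quantile normalisation and -0.28 when centred on pan-macrophage genes, none of which passed (adjusted p = 0.508, 0.0928 and 0.17). A p that misses the threshold does not show equal levels.

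**Figure D2:**
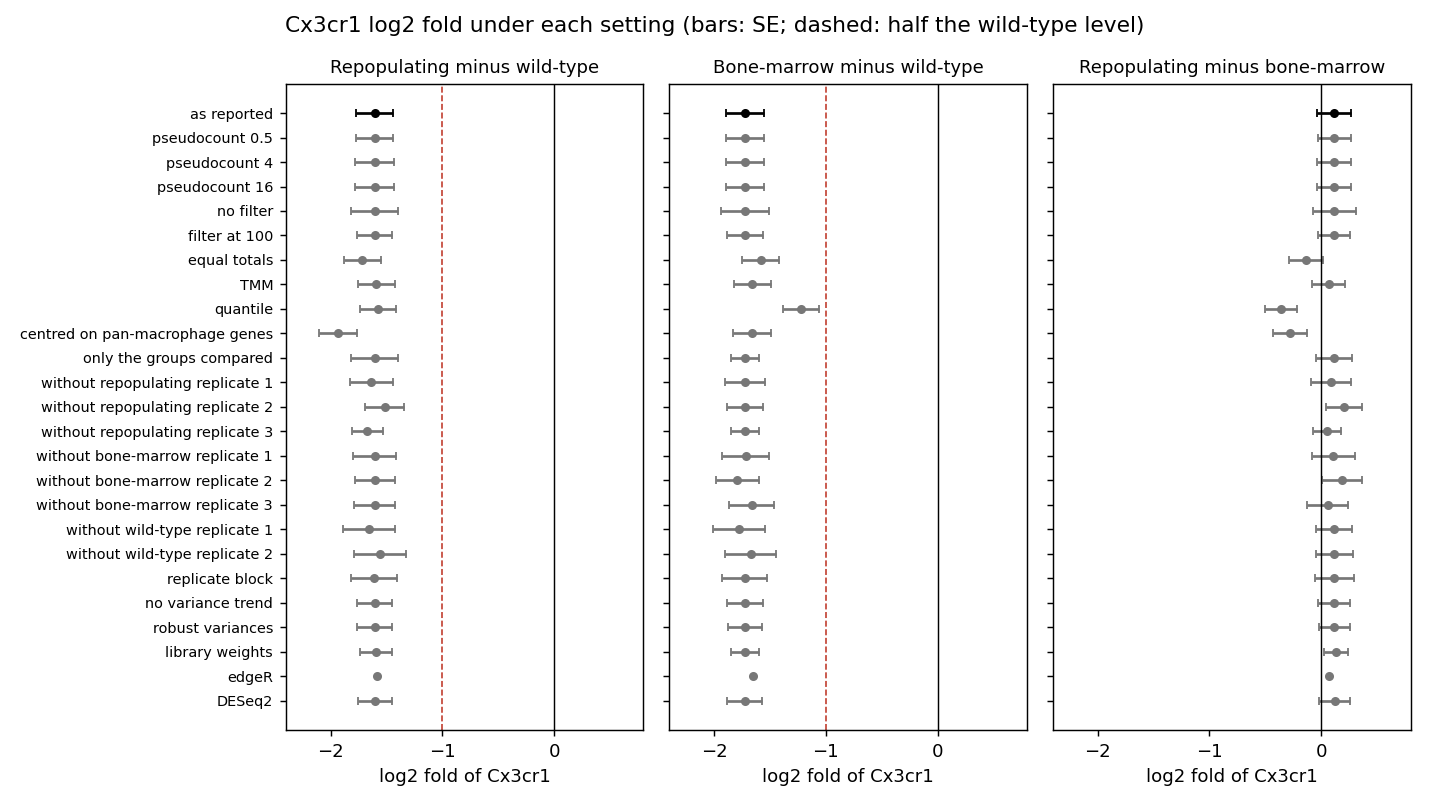
Log2 fold of Cx3cr1 in 3 comparisons under the reported setting and 24 alternatives, with SE bars where the tool gives them. The dashed line is a log2 fold of -1. Folds against wild type run from -1.94 to -1.52 for repopulating microglia and from -1.79 to -1.22 for bone-marrow macrophages, and those between the DTRmg groups from -0.36 to 0.21.

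The labelled cell types were set beside 15 other microglia markers. That list was chosen with earlier results of these data known, so it is no independent check of the labels. All 15 were lower in bone-marrow macrophages than in wild type (median log2 fold -2.76), beside 22.2% of all tested genes lower. All 15 were higher in repopulating microglia than in bone-marrow macrophages (median 2.05), beside 30.9% of all tested genes in either direction. In repopulating microglia against wild type 6 were lower and 9 not called (median -0.41), beside 3.75% of all tested genes lower. Sall1, a transcription factor of microglial identity, had 2594, 1864 and 6101 normalised counts in repopulating microglia, 35.8, 9.55 and 15.0 in bone-marrow macrophages and 3180 and 4056 in wild-type microglia. Repopulating and wild-type libraries overlapped for Sall1 and the bone-marrow libraries were near 0. Tmem119, P2ry12 and Siglech, which define microglia as well, were also lower in bone-marrow macrophages than in both microglia groups.

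Cx3cr1 stood at an end of the order of these markers in both comparisons of repopulating microglia. Of the 16 genes it had the smallest fold between repopulating microglia and bone-marrow macrophages, 0.12, next to Fcrls, an Fc receptor-like protein of microglia, at 0.44 ± 0.12 (SE). The other 14 ran from 1.10 for the lipid receptor Trem2 to 7.39 for Sall1. The Fcrls call (limma adjusted p = 0.0266) ended without repopulating replicate 2 (0.0535) and without bone-marrow replicate 1 (0.122), 2 (0.0539) or 3 (0.0869). It also ended under other scalings, with a log2 fold of -0.036 after quantile normalisation. Against wild type Cx3cr1 had the lowest fold of the 16 in repopulating microglia, followed by the receptors Gpr34 at -1.43 and P2ry13 at -1.24, Slc2a5 at -1.19 and P2ry12 at -1.15. In bone-marrow macrophages against wild type it was 12th from the lowest, since 11 markers, P2ry12 at -4.44 and the fructose transporter Slc2a5 at -5.99 among them, were lower still.

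P2ry12, an ADP receptor of microglial processes, kept all 3 groups apart. It had 36757, 27059 and 34120 normalised counts in repopulating microglia, 2959.6, 4044 and 3020.2 in bone-marrow macrophages and 75180 and 68682 in wild-type microglia. No library of a group reached into another for P2ry12, whereas repopulating and bone-marrow libraries did for Cx3cr1. Its fall in repopulating microglia (limma adjusted p = 0.0137) did not pass without wild-type replicate 1 (0.14) or 2 (0.0828). The 6 markers called lower against wild type became 0 without wild-type replicate 1, 1 without wild-type replicate 2 and 8 without repopulating replicate 3, while Cx3cr1 passed in every one of these fits.

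Relative to the mean log2 level of those 15 markers, Cx3cr1 stood 0.05 and 0.05 above and 0.04 below it (-0.04) in repopulating microglia 1 to 3. It stood 2.44, 2.62 and 2.37 above in bone-marrow macrophages and 1.07 and 1.23 above in wild-type microglia. No group overlapped another in this log2 difference. The mean of the 15 markers was itself 14.2 to 14.6 in repopulating microglia, 11.8 in bone-marrow macrophages and 14.8 to 14.9 in wild-type microglia. The separation therefore reflects the markers as well as Cx3cr1, and its p-values add no support. The exact permutation p-values were 0.1 for repopulating microglia against bone-marrow macrophages and 0.2 for each against wild type, the smallest these sizes allow. Against Csf1r, the growth-factor receptor shared by microglia and other macrophages, Cx3cr1 amounted to 26.3, 28.5 and 22.9% in repopulating microglia, 53.8, 55.8 and 46.0% in bone-marrow macrophages and 89.9 and 86.2% in wild-type microglia. These are ratios of normalised counts, not per length. Against the mean of 8 pan-macrophage genes, of which Csf1r is also among the 15 markers, Cx3cr1 stood higher by 1.45, 1.27 and 1.501 log2 units in repopulating microglia, 1.71, 1.82 and 1.52 in bone-marrow macrophages and 3.25 and 3.44 in wild-type microglia. Relative to these genes and to Csf1r, all repopulating libraries lay below all bone-marrow libraries. The mean difference to the pan-macrophage genes was -0.28 (exact permutation p = 0.1, the smallest for 3 against 3).

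**Figure D3:**
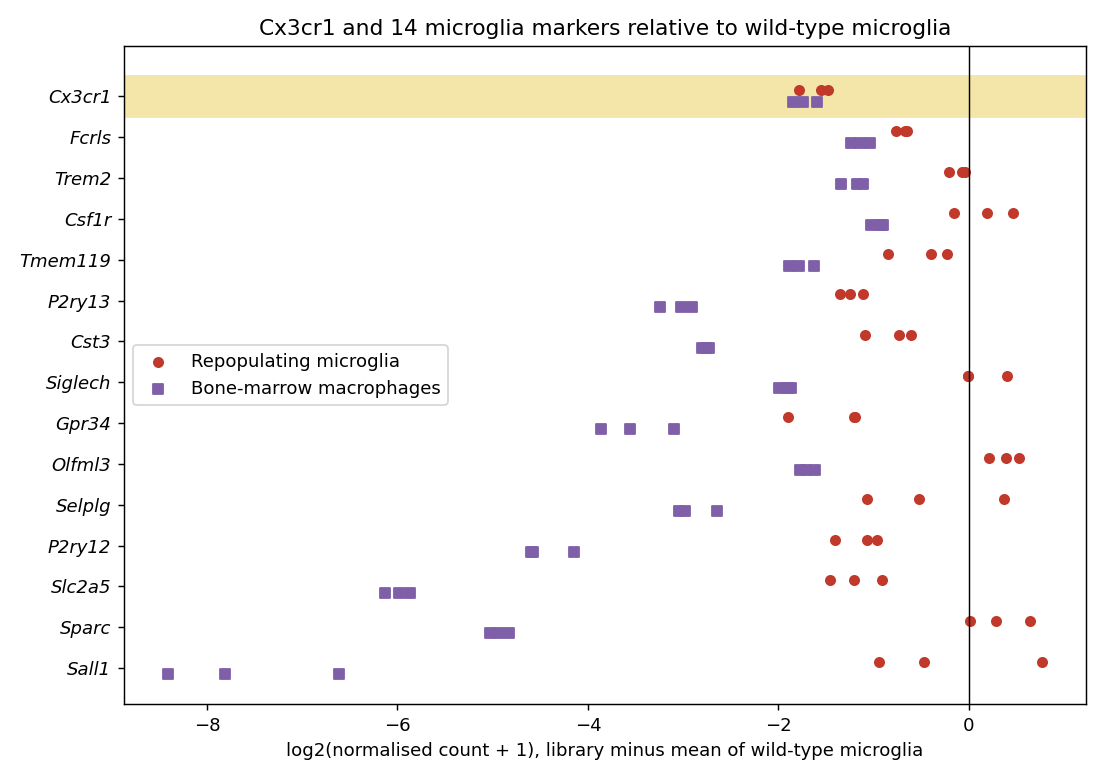
Each library's log2(normalised count + 1) minus the wild-type mean for Cx3cr1 (shaded) and 14 of the 15 microglia markers, ordered by the fold between repopulating microglia (circles) and bone-marrow macrophages (squares). The circles and squares overlap for Cx3cr1 and lie apart for the other genes shown, from Fcrls at a fold of 0.44 to Sall1 at 7.39.

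Markers of other cells differed between the groups too, and their calls stand beside these shares of all tested genes against wild type. In repopulating microglia 3.75% were lower and 4.86% higher, and in bone-marrow macrophages 22.2% were lower and 21.3% higher. The 8 neutrophil markers summed to 1573 to 2969 normalised counts in repopulating microglia, 767 to 1284 in bone-marrow macrophages and 25330 to 27760 in wild-type microglia, and 8 of 8 were called lower in each comparison with wild type, with none at 0. The 8 classical monocyte markers summed to 644 to 1824 in repopulating microglia, 1720.4 to 2552 in bone-marrow macrophages and 4967 to 5130 in wild-type microglia, with 6 of 8 lower in repopulating microglia and 4 of 8 lower in bone-marrow macrophages against wild type. The 8 border macrophage markers summed to 4232 to 6824 in repopulating microglia, 15873 to 19098 in bone-marrow macrophages and 2374 to 2840 in wild-type microglia, with 1 of 8 higher in repopulating microglia and 4 of 8 higher in bone-marrow macrophages against wild type. Wild-type libraries thus had the highest sums of the neutrophil and classical monocyte lists and the lowest of the border macrophage list. Not all members followed these sums. Ccr2, F13a1 and Fn1 averaged 1166, 406 and 394 in bone-marrow macrophages and 930, 404 and 271 in wild-type microglia. The largest wild-type averages of that list were those of Chi3l3 (1543) and Ly6c2 (1111). Chi3l3 and Cd177, the latter with a wild-type average of 508, were lower in both DTRmg groups, as the neutrophil markers were. Whether these genes came from monocytes or neutrophils was not tested, so the sums of these lists are not shown to be separate. Of the border markers, Lyve1, Cd163 and F5 averaged 6.46, 21.2 and 7.27 in bone-marrow macrophages and 12.4, 44.3 and 14.7 in wild-type microglia. Stab1 averaged 10005 and 1985 in these groups.

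Markers of patrolling monocytes, the blood cells known for high Cx3cr1, were split in direction. These 8 genes summed to 3214 to 5586 normalised counts in repopulating microglia, 8305 to 8811 in bone-marrow macrophages and 2198 to 2371 in wild-type microglia. In bone-marrow macrophages the sum was carried by the integrin Itgal and the scavenger receptor Cd36. There 3 of 8 were called higher and 2 lower against wild type, beside 43.5% of all tested genes in either direction. In repopulating microglia 0 were higher and 3 lower against wild type by limma, beside 8.61% of all tested genes in either direction. At an unadjusted p under 0.05 there were 3 higher and 3 lower. The 3 lower by limma were Treml4 at a log2 fold of -3.29, Spn at -2.82 and Ace at -2.45. Treml4 and Ace were highest in wild type as Cx3cr1 was. In bone-marrow macrophages against wild type Ace was lower at -1.84, and Treml4 at -0.82 did not pass (limma adjusted p = 0.0955). The Ace call ended in both groups without wild-type replicate 1 (limma adjusted p = 0.184 in repopulating microglia and 0.121 in bone-marrow macrophages), and in repopulating microglia also without repopulating replicate 1 (0.0532) or wild-type replicate 2 (0.0775). Lymphocyte and natural killer cell markers summed to 59.0 to 199 in repopulating microglia, 109 to 174 in bone-marrow macrophages and 397 to 479 in wild-type microglia. Against wild type 0 of 5 tested were higher and 2 lower in repopulating microglia, beside 8.61% of all tested genes in either direction. In bone-marrow macrophages 1 was higher and 1 lower, beside 43.5%. Members were split, since Cd3e, Cd3g, Cd79a and Cd3d averaged 6.01, 10.2, 16.8 and 7.53 in bone-marrow macrophages and 0, 0, 3.69 and 27.5 in wild-type microglia. Other brain cells were traced as well. Astrocyte markers summed to 242 to 2140 in repopulating microglia, 70.5 to 106 in bone-marrow macrophages and 1072 to 6441 in wild-type microglia. Nearly all of the astrocyte sum in the wild-type libraries was Slc1a3, a glutamate transporter, with 1387, 182 and 1909 normalised counts in repopulating microglia, 17.0, 14.8 and 14.1 in bone-marrow macrophages and 987 and 6365 in wild-type microglia. Another astrocyte marker, Aldh1l1, went the other way and was higher in repopulating microglia than in wild type at a log2 fold of 1.72 (limma adjusted p = 0.041), a call that ended without any single library except repopulating replicate 2 or 3 (0.0642 to 0.259). Endothelial markers summed to 92.6 to 437 in repopulating microglia, 56.8 to 74.2 in bone-marrow macrophages and 429.5 to 702 in wild-type microglia. Against wild type 0 of 6 were called in repopulating microglia, beside 8.61% of all tested genes. In bone-marrow macrophages 4 of 6 were lower, beside 22.2% of all tested genes lower. Oligodendrocyte and neuron markers summed to 1129.5 to 1616 and 17.6 to 48.8 over all libraries. In bone-marrow macrophages 1 of 4 tested oligodendrocyte and 1 of 2 tested neuron markers were lower against wild type, beside 22.2% of all tested genes lower. In repopulating microglia 0 of these were called, beside 8.61% of all tested genes in either direction. The part of these cells in the Cx3cr1 difference was not tested.

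The message of the ligand was close to 0, and of its proteases Adam17 and Ctss each passed in 1 of the 3 comparisons between groups. Cx3cl1 had 6.61, 8.86 and 8.06 normalised counts in repopulating microglia, 1.70, 0 and 4.41 in bone-marrow macrophages and 6.41 and 9.15 in wild-type microglia, too few to test. All 8 libraries thus lay below 10 normalised counts for the ligand. Adam10, a metalloprotease that sheds fractalkine, passed in no comparison (log2 fold against wild type 0.24 in repopulating microglia and 0.027 in bone-marrow macrophages). Adam17, which sheds it on stimulation, was higher in bone-marrow macrophages than in wild type by 0.47 ± 0.13 on the log2 scale (SE, limma adjusted p = 0.0176). That call ended without bone-marrow replicate 1 (0.059) or 2 (0.0627) or wild-type replicate 1 (0.139). Cathepsin S, encoded by Ctss and able to free fractalkine, had 146250, 137605 and 92819 normalised counts in repopulating microglia, 55467, 62167 and 54800 in bone-marrow macrophages and 85159 and 79762 in wild-type microglia. The groups did not overlap, and it was higher in repopulating microglia than in bone-marrow macrophages by 1.10 ± 0.21 (SE, limma adjusted p = 0.00454), a call that ended after quantile normalisation (0.0693).

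Of 24 other chemokine receptors, among which the chemokine-like receptor Cmklr1 was counted, 15 could be tested and 1 had no read. In repopulating microglia against wild type 1 was higher and 6 were lower (median log2 fold -0.77), beside 8.61% of all tested genes in either direction and 3.75% lower. In bone-marrow macrophages against wild type 2 were higher and 7 lower (median -1.08), beside 43.5% of all genes in either direction. In repopulating microglia against bone-marrow macrophages 4 were higher and 2 lower (median 0.33), beside 30.9% of all genes. The 6 lower calls of the first comparison became 1 without wild-type replicate 1, 0 without wild-type replicate 2 and 3 without bone-marrow replicate 2. They also became 0 when only those groups were fitted, whereas Cx3cr1 kept its call in each of these fits.

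Per kilobase of exon Cx3cr1 was the highest of these receptors in every library. It averaged 4847 ± 529 normalised counts per kilobase (SD) in repopulating microglia, 4460.1 ± 394 in bone-marrow macrophages and 14705 ± 739 in wild-type microglia. Its share of the summed per-kilobase level of all 25 receptors was 55.8, 50.6 and 67.5% in repopulating microglia, 60.9, 58.9 and 57.9% in bone-marrow macrophages and 82.8 and 84.4% in wild-type microglia. That sum includes Cmklr1, which averaged 841 per kilobase in repopulating microglia, 439 in bone-marrow macrophages and 604 in wild-type microglia. Next to it came Ccrl2 in the repopulating libraries, where Cx3cr1 stood 2.59 to 5.29 times as high, and Ccr1 in the bone-marrow libraries, where it stood 3.19 to 3.39 times as high.

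Several of the other receptors had a different order of groups. Ccrl2, an atypical receptor that holds chemerin without signalling, averaged 1427 ± 373 normalised counts per kilobase in repopulating microglia, 467 ± 191 in bone-marrow macrophages and 342 ± 37.3 in wild-type microglia. It was higher in repopulating microglia than in bone-marrow macrophages by a log2 fold of 1.68 ± 0.33 (SE, limma adjusted p = 0.00555) and than in wild type by 2.03 ± 0.37 (0.0162). The call against wild type ended without repopulating replicate 1 (0.0534) or wild-type replicate 1 (0.15) or 2 (0.0954). Ccr2, the receptor that draws classical monocytes to tissue, averaged 37.6 ± 20.9 per kilobase in repopulating microglia, 173 ± 34.9 in bone-marrow macrophages and 138 ± 3.89 in wild-type microglia. It was lower in repopulating microglia than in bone-marrow macrophages at -2.39 ± 0.44 (limma adjusted p = 0.00365). Cxcr2 and Ccr7, known from neutrophils and from migrating dendritic cells and lymphocytes, were lower than in wild type in both DTRmg groups, beside the lower neutrophil sums given above. Cxcr2 stood at a log2 fold of -2.42 in repopulating microglia and -2.75 in bone-marrow macrophages, and Ccr7 at -3.14 in repopulating microglia and -3.10 in bone-marrow macrophages. In repopulating microglia the call of Cxcr2 ended without wild-type replicate 2 (limma adjusted p = 0.0558) and that of Ccr7 without wild-type replicate 1 (0.103) or 2 (0.0684).

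**Figure D4:**
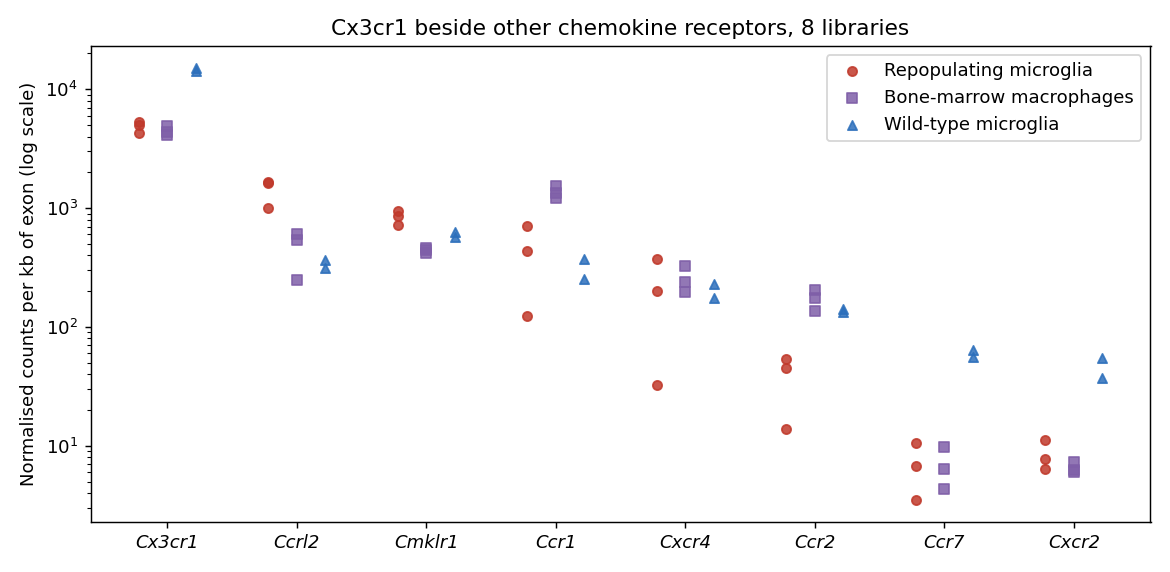
Normalised counts per kilobase of exon (log axis) of Cx3cr1 and 7 other receptors of the list, the chemokine-like Cmklr1 among them. Each library of repopulating microglia (circles), bone-marrow macrophages (squares) and wild-type microglia (triangles) is shown. Cx3cr1 is highest in every library, followed by Ccrl2 in the repopulating and Ccr1 in the bone-marrow libraries.

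Genes that carry the receptor's signal were counted next. Of 25 tested G-protein subunits and effectors of chemokine receptors, 0 were higher and 1 was lower in repopulating microglia against wild type by limma (median log2 fold 0.20), beside 8.61% of all tested genes in either direction. At an unadjusted p under 0.05 there were 4 higher and 2 lower, edgeR called 0 and 1, and DESeq2 2 and 1. The lower gene, Gng2, a G-protein gamma subunit, stood at -0.68 ± 0.15 (SE, adjusted p = 0.0296) and lost its call without any single library but repopulating replicate 3 (0.0569 to 0.206). Gnai2, the inhibitory alpha subunit, had 10321, 10538 and 11520.3 normalised counts in repopulating microglia, 10313, 10202 and 11616 in bone-marrow macrophages and 8147 and 8826 in wild-type microglia. All DTRmg libraries were above both wild-type libraries for Gnai2, but the log2 folds against wild type did not pass, at 0.35 in repopulating microglia (limma adjusted p = 0.152) and 0.33 in bone-marrow macrophages (0.0779).

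In bone-marrow macrophages 1 of the 25 genes was higher and 4 were lower against wild type (median 0.10), beside 43.5% of all genes. Against bone-marrow macrophages repopulating microglia had 3 higher and 0 lower (median 0.11), beside 30.9% of all genes. Among them were the G-protein gamma subunit Gng10 at 1.48 ± 0.25 (SE, limma adjusted p = 0.00222) and the phosphoinositide kinase adaptor Pik3r5 at 0.95 (0.0087). Of 13 arrestins, receptor kinases and RGS proteins, which end receptor signalling, limma and edgeR called 0 in repopulating microglia against wild type and DESeq2 called 2 lower (median -0.18), with 2 higher and 3 lower at an unadjusted p under 0.05. Against wild type 2 were higher and 3 lower in bone-marrow macrophages, and 2 were higher and 5 lower in repopulating microglia against bone-marrow macrophages, beside 43.5% and 30.9% of all genes in these comparisons. Grk6, a receptor kinase, had 302, 344 and 435 normalised counts in repopulating microglia, 829, 728 and 753 in bone-marrow macrophages and 259 and 270.5 in wild-type microglia. Groups did not overlap for Grk6, and bone-marrow macrophages were highest, at a log2 fold of 1.54 ± 0.17 (SE) against wild type (limma adjusted p = 0.000216). Repopulating microglia were at 0.43 ± 0.17 against wild type and did not pass (0.153).

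Neighbours on the chromosome were measured beside Cx3cr1. Of 32 protein-coding genes within 1 Mb, 31 were in the table, 5 had no read and 18 were tested. Against wild type 1 was higher and 0 were lower in repopulating microglia by limma (median log2 fold 0.30, range -0.88 to 1.18), where Cx3cr1 stood at -1.61. With 3.75% of all tested genes lower in that comparison, 0 of 18 says nothing particular of the neighbours. At an unadjusted p under 0.05 there were 6 higher and 2 lower, edgeR called 1 and 0, and DESeq2 2 and 1. The higher gene was Rpsa, a ribosomal protein gene, at 1.18 ± 0.28 (SE, adjusted p = 0.0365), whose call ended without any single library except repopulating replicate 3 (0.0626 to 0.204). Wdr48, Gorasp1 and Csrnp1 overlap the Cx3cr1 span but share no exon with it, and stood at 0.17, -0.25 and 0.59 in repopulating microglia against wild type, with no call.

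In bone-marrow macrophages against wild type 5 neighbours were higher and 4 lower (median -0.31), near the 43.5% of all genes. In repopulating microglia against bone-marrow macrophages 5 were higher and 2 lower (median 0.23), near the 30.9% of all genes. Csrnp1, a nuclear protein whose gene lies within the Cx3cr1 span, had 1189, 1228 and 925 normalised counts in repopulating microglia, 155, 222 and 268 in bone-marrow macrophages and 624 and 861 in wild-type microglia. The groups did not overlap for Csrnp1, and bone-marrow macrophages were lower than wild type at -1.80 ± 0.25 (SE, limma adjusted p = 0.000709), beside the Cx3cr1 fold of -1.72. Repopulating microglia stood at 0.59 ± 0.25 against wild type, which did not pass (0.177).

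**Figure D5:**
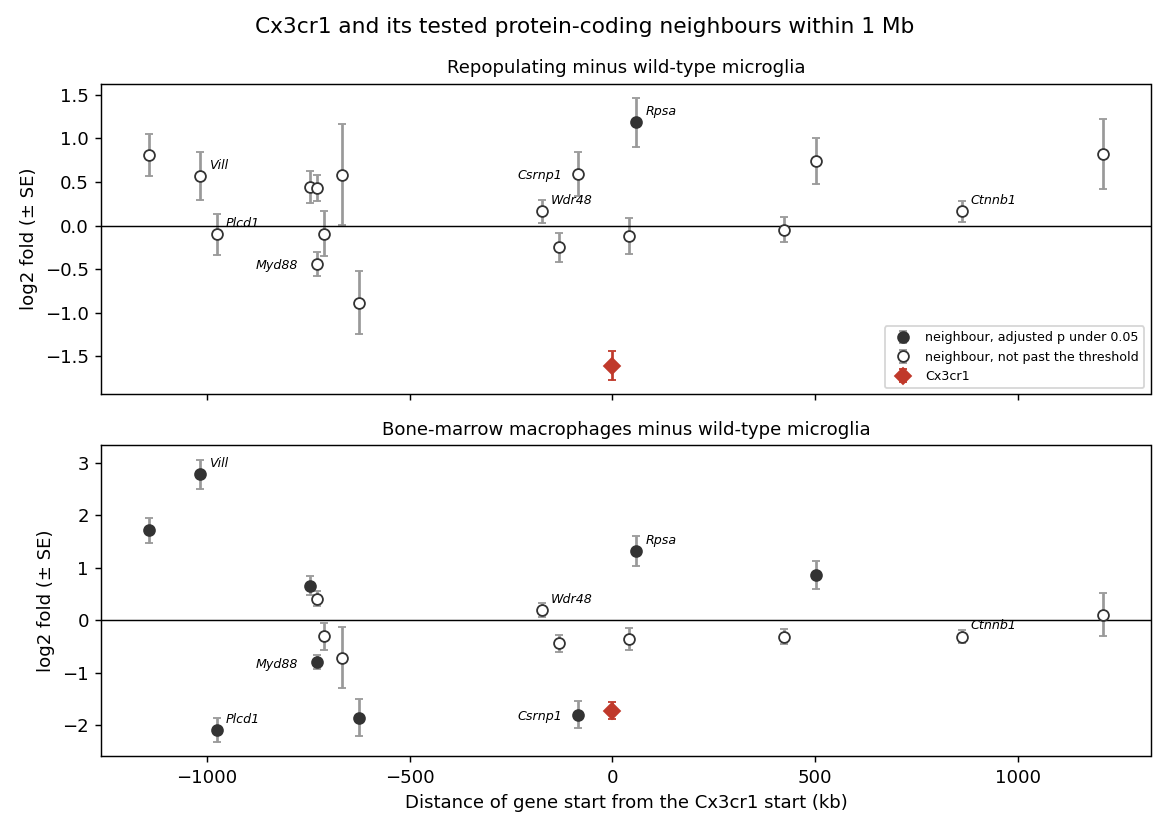
Log2 fold (± SE) of Cx3cr1 (diamond) and its 18 tested protein-coding neighbours against the distance of their start from the Cx3cr1 start in kb, for repopulating microglia (top) and bone-marrow macrophages (bottom) minus wild-type microglia. Filled points passed an adjusted p of 0.05. In the top panel Cx3cr1, at -1.61, lies below all neighbours, whose lowest fold is -0.88.

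Transcripts of Gt(ROSA)26Sor and Hbegf, loci that the strain labels do not name, were scarce. Gt(ROSA)26Sor, the transcript of a locus often used to hold such transgenes, had 22.7, 17.7 and 11.5 normalised counts in repopulating microglia, 29.6, 52.0 and 30.9 in bone-marrow macrophages and 7.48 and 10.2 in wild-type microglia. All DTRmg libraries were above both DTR libraries for it, and the fold passed in bone-marrow macrophages at 1.94 ± 0.40 (SE, limma adjusted p = 0.00519) but not in repopulating microglia at 0.86 ± 0.40 (0.214). The gap between repopulating replicate 3 (11.5) and wild-type replicate 2 (10.2) was narrow, since 1 read is worth 1.15 and 1.02 normalised counts there. So the full separation of the labels rests on few reads. Hbegf, the mouse gene for the growth factor whose primate form binds diphtheria toxin, had 15.1, 14.8 and 20.7 normalised counts in repopulating microglia, 0, 3.18 and 2.65 in bone-marrow macrophages and 48.1 and 44.7 in wild-type microglia. Groups did not overlap for Hbegf, and bone-marrow macrophages were lower than wild type at -4.26 ± 0.62 (adjusted p = 0.000888). Whether reads of a primate transgene were counted under Hbegf was not tested.

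Genes with the profile most like that of Cx3cr1 were ranked by Pearson correlation of log2 levels over the 8 libraries, among 7319 tested genes with a mean of at least 100 normalised counts. The first 10 were Rnf185 (r = 0.988), Kdsr (0.984), Usp22 (0.982), Asb7 (0.980), Chi3l3 (0.980), Fcrl1 (0.980), Nt5c2 (0.978), Cd177 (0.977), Cd24a (0.976) and Dusp6 (0.976). The points share their libraries, and Cx3cr1 itself falls into a high pair and 6 low libraries, so a gene that only separates wild type from the other libraries also reaches a high r. Sizes of the folds differed widely among them. Rnf185, a ubiquitin ligase, averaged 254 normalised counts in repopulating microglia, 230.2 in bone-marrow macrophages and 397 in wild-type microglia. Chi3l3, a chitinase-like protein, averaged 112 in repopulating microglia, 112 in bone-marrow macrophages and 1543 in wild-type microglia.

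By distance between centred profiles, which also weighs the size of the change, Fcrl1, an Fc receptor-like gene known from B cells, was nearest at 0.19 log2 units (root mean square), then Bank1, a B-cell adaptor, at 0.24 and Dpysl2 at 0.26. Fcrl1 was the 1 gene in the first 10 of both measures. It had 176, 143 and 176 normalised counts in repopulating microglia, 111, 141 and 116 in bone-marrow macrophages and 553 and 471 in wild-type microglia. Its DTRmg libraries were all below both wild-type libraries, at log2 folds of -1.63 ± 0.18 (SE, limma adjusted p = 0.00225) in repopulating microglia and -2.06 ± 0.18 (6.76e-05) in bone-marrow macrophages. The call in repopulating microglia ended without wild-type replicate 1 (0.0501).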

How the data were processed

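RNA sequencing values of 8 mouse libraries were used as the authors deposited them: a signal per gene, namely gene counts divided by 1 size factor per library. They held 5918944 to 12476427 reads each. All values above 0 were whole multiples of 1 read within 0.01 reads (100% in each library), and reads were recovered by that division. Per the submitters' processing notes, the build was mm10 and the tools DESeq 1.14.0, HTSeq, Bowtie2 2.1.0.0 and TopHat2 2.0.10, without their settings. Per the labels' protocols, libraries were made with a TruSeq kit that does not mark strand.

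Columns were matched to samples by name, the 3 bone-marrow columns by exclusion, and groups follow the sample titles. Cx3cr1 and all gene lists were chosen with earlier results of these data known, so their tests are no independent support. log2(value + 1) was fitted for 11415 genes, those reaching 10 normalised counts in 2 or more libraries, over all 8 libraries without covariates, with limma 3.58.1 in R 4.3.3 (variance trend, two-sided, Benjamini-Hochberg threshold 0.05). Folds of low genes are understated on this scale. Named genes were Cx3cr1, the 10 most correlated with it, tested neighbours, and members of 16 lists by smallest adjusted p or highest level, of which the text gives a part and some are not reported here. Genes named by distance between profiles, or by a call outside that rule, were chosen after their values were seen. Alternatives were other pseudocounts, filters, scalings, variance models and sets of libraries, a replicate block, and edgeR 4.0.16 and DESeq2 1.42.0 on recovered reads. Lengths and positions are from GENCODE vM21. The fit was tested on simulated data. Replicates were all kept, since each pair differed by more than sampling noise. Figures used matplotlib 3.10.9.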

Additional observations from a re-analysis of the deposited data

How the results depend on the processing

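Cx3cr1 kept its sign and its call against wild type in all 24 alternatives for each DTRmg group, with log2 folds of -1.94 to -1.52 in repopulating microglia and -1.79 to -1.22 in bone-marrow macrophages and adjusted p-values of at most 0.0414 and 0.00273. Leaving out single libraries gave -1.67 to -1.52 and -1.79 to -1.66, 0.05 to 0.21 between the DTRmg groups, and -1.72 to -1.61 for DTRmg against DTR. Between the DTRmg groups the fold of 0.12 turned to -0.13 with equal totals, -0.36 with quantile normalisation and -0.28 when centred on pan-macrophage genes. Against a log2 fold of -1, bone-marrow macrophages did not pass under quantile normalisation (difference -0.22), and without single libraries the differences were -0.67 to -0.52 in repopulating microglia and -0.79 to -0.66 in bone-marrow macrophages.

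Counts of genes past the threshold moved more than Cx3cr1. For repopulating against wild-type microglia the 983 genes became 2394 when centred on pan-macrophage genes, 78 with only those groups fitted, 2807 with library weights, 1625 with DESeq2 and 67 to 2958 without single libraries. Library weights gave 6409 genes for repopulating microglia against bone-marrow macrophages, in place of 3526, and 5683 for DTRmg against DTR, in place of 3556. Without single libraries these counts ran from 2222 to 5348 and from 1088 to 5848, and from 2867 to 7030 for bone-marrow macrophages against wild type, in place of 4960. Equal totals gave 442 higher and 726 lower genes for repopulating against wild-type microglia, in place of 555 and 428, with a median of all genes of -0.12. They gave 2999 and 2069 for bone-marrow macrophages against wild type, in place of 2428 and 2532 (median 0.13), and 1172 and 2924 between the DTRmg groups, in place of 1826 and 1700 (median -0.25). Centring on pan-macrophage genes gave 293 and 2101, 959 and 3945, and for DTRmg against DTR 1288 and 2392 in place of 1751 and 1805, with medians of -0.35 and -0.39 in the first pair. Other signs that turned, all between repopulating microglia and bone-marrow macrophages, were Fcrls at -0.036 under quantile normalisation and Gnai2 at -0.38, Rgs19 at -0.34 and Myd88 at -0.028 when centred. The causes were not tested. Among same-numbered libraries 2 of 7 pairs had deviations from their group means correlated above r = 0.1 (range -0.24 to 0.24). The deviations of the 2 wild-type libraries mirror each other by construction, so these correlations are not independent. They cannot decide whether the numbers pair the samples. With the replicate number as a block Cx3cr1 stood at -1.61 in repopulating microglia against wild type (adjusted p = 0.0104) and the genes called numbered 733.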
